A study of Mus musculus with 20 samples.

Results

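Untreated presomitic mesoderm colonies of 4 transgenic mouse lines were compared with each other. Of the 20 RNA libraries of the series, 4 belong here: the untreated libraries of tetO-Clock/Bmal1 pHes7-luc clones 20 and 12, and those of tetO-Clock/Bmal1DN pHes7-luc clones 19 and 7. They were taken by their labels (cell type iPSM, genotype and no doxycycline), and no measured value was used. The series asks what Clock and Bmal1 do to the segmentation clock when they are switched on by doxycycline (dox) in mouse embryonic stem cells and in iPSM, the presomitic mesoderm colonies grown from such cells. All 4 lines descend from E14TG2a embryonic stem cells with a Hes7-promoter luciferase reporter. In the first pair dox switches on Clock and Bmal1 (Arntl in mouse nomenclature), in the second Clock with Bmal1DN, called ClockBmal1DN below, a form whose name marks it as dominant negative. Neither pair received dox here, so both genotypes were compared with their transgenes uninduced. Each clone is 1 line with 1 untreated library. Its second library, after 1000 ng/mL dox for 2 hours, served to measure how much libraries of 1 clone differ. It also entered the log2 fold changes between clones of 1 genotype and some descriptions. The pHes7-luc line without a tetO transgene gave an untreated library that is quoted as the control line.

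The presomitic mesoderm is the posterior tissue from which somites form. In it Hes7, a transcriptional repressor, oscillates by shutting off its own gene, and Lfng, a glycosyltransferase that modifies Notch receptors, oscillates with it. Notch ligands such as Dll1, posterior Wnt and FGF signals, and the T-box factor Tbx6 keep this clock and the tissue's identity, while Clock and Bmal1 form the activating arm of the circadian clock and bind E-box sequences in genes such as Per1, Per2, Nr1d1 and Dbp.

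The 4 libraries held 45055636 and 47654350 gene-body counts in Clock/Bmal1 clones 20 and 12, and 47664485 and 38411740 in ClockBmal1DN clones 19 and 7. Levels are given as CPM, counts divided by the TMM-scaled library size and not by gene length, so they compare libraries and not genes. Presomitic markers were present in all 4: T, a posterior mesoderm factor, had 558 and 511 CPM in clones 20 and 12, against 624 and 576 CPM in clones 19 and 7. Mesp2 and Ripply2, markers of the segment boundary, stayed at or under 0.230 CPM in each, so those markers were close to absent. The untreated library of clone 20 stood apart. It lay at -84.1 on the second principal component of the 8 transgene libraries, where the others lay between -2.74 and 28.3, and it had reads over 50.2% of features, against 53.5% in untreated clone 12 and 53.9% and 51.8% in clones 19 and 7. The untreated control library stood apart as well, with reads over 69.4% of features, against 52.4% in its dox library. In bulk RNA, fewer cells of a type and less RNA per cell cannot be told apart.

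That library also differed by gene length. Genes were split into 4 classes of equal number by the length of the gene body, and its level was set against the mean of the 8 transgene libraries. In the shortest class, up to 7848 bases, the median gene of untreated clone 20 lay 0.25 above that mean on the log2 scale, and in the longest class, over 54449 bases, it lay at -0.30. The same medians were -0.06 and 0.07 in untreated clone 12, 0.0009 and 0.02 in clone 19, and -0.10 and 0.12 in clone 7. The dox library of clone 20 showed almost no such slope, with 0.01 and -0.004. The untreated control library, with -0.19 and 0.11, had the opposite slope.

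**Figure D1:**
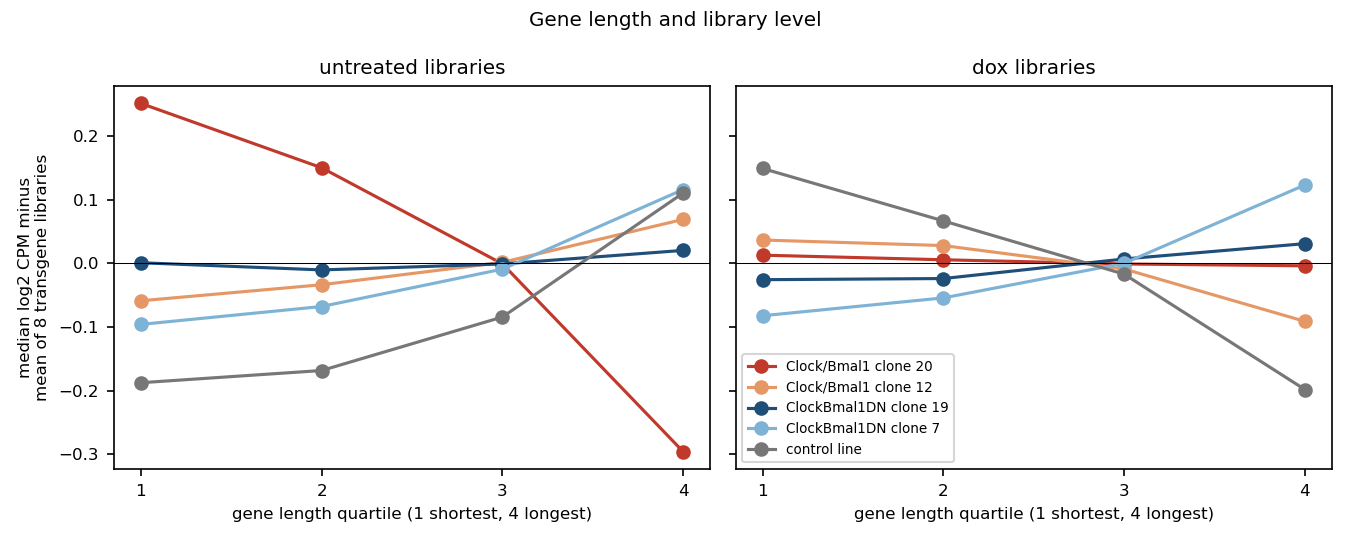
Median log2 CPM of genes in 4 gene length classes (x axis, shortest to longest), as the difference from the mean of the 8 transgene libraries (y axis, log2), for untreated libraries on the left and dox libraries on the right. Each line is 1 library. Untreated clone 20 runs from 0.25 in the shortest class down to -0.30 in the longest, while its dox library stays near 0.

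The transgenes' own genes were looked at first. Clock had 104 and 99.4 CPM in untreated clones 20 and 12, against 108 and 112 CPM in clones 19 and 7 and 109.9 CPM in the control line. Arntl had 77.4 and 56.5 CPM in clones 20 and 12, against 66.1 and 41.8 CPM in clones 19 and 7 and 20.8 CPM in the control line. All 4 untreated transgene lines thus lay above the control line's single value for Arntl, and the genotypes overlapped. The counts run over the whole gene, so reads of a transgene and of the endogenous gene cannot be told apart. After dox, Clock reached 2469 and 1750 CPM in clones 20 and 12, against 1058 and 1023 CPM in clones 19 and 7, so Clock responded to dox in all 4 clones. Arntl then reached 4701 and 3216 CPM in clones 20 and 12, and 153 and 888 CPM in clones 19 and 7.

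No gene passed the test between the untreated genotypes. Of 24951 genes tested with edgeR's quasi-likelihood test over all 10 iPSM libraries, 0 were higher (0%) and 0 lower (0%) in the Clock/Bmal1 clones at a Benjamini-Hochberg adjusted p under 0.05. At an unadjusted p under 0.05, 477 were higher (1.91%) and 726 lower (2.91%). The higher ones were short, with a median gene body of 8378 bases, and the lower ones long, with 66106 bases, against 17401 bases over all genes tested, which is the direction in which untreated clone 20 departed from the other libraries. The part of gene length in these counts was not tested beyond an offset for it, which also gave 0 genes. DESeq2 called 25 genes, 2 higher and 23 lower, and limma on voom values 0. Calls appeared when clone 12 was left out, so that untreated clone 20, the library that stood apart, was alone for its genotype. They did not appear when clone 20, 19 or 7 was left out, so clone 12 alone gave no calls. A fit with 1 clone in a group assumes that this clone varies like the other groups. Its calls are thus not read as a genotype difference.

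The 2 genotypes did not overlap for many genes even so. Both Clock/Bmal1 clones lay above both ClockBmal1DN clones for 3648 genes (14.6%) and below both for 3995 (16.0%). Kcnh7, a potassium channel gene with a gene body of 490864 bases, had the smallest p. It had 22.0 and 26.9 CPM in clones 20 and 12, against 74.8 and 78.7 CPM in clones 19 and 7, with 62.7 CPM in the control line. Its log2 fold change was -1.65 ± 0.20 (SE), with an adjusted p of 0.111. Of the genes that followed, both of them long, Col24a1, a fibrillar collagen gene, had 13.5 and 14.9 CPM, against 25.8 and 30.7 CPM in clones 19 and 7, and Fat4, an atypical cadherin gene, had 3.44 and 4.02 CPM, against 9.17 and 8.88 CPM. These 3 genes were chosen after their values were seen.

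Among segmentation genes, the genotype comparison gave low values for Msgn1, a bHLH factor of the posterior presomitic mesoderm. It had 35.9 and 21.5 CPM in Clock/Bmal1 clones 20 and 12, against 68.9 and 64.6 CPM in ClockBmal1DN clones 19 and 7, and 52.6 CPM in the control line. Both Clock/Bmal1 clones were under all 3 other untreated lines, with a log2 fold change of -1.22 ± 0.24 (SE) and an adjusted p of 0.692. Its gene body is short, at 612 bases. With the gene length trend of each library as an offset, edgeR gave a log2 fold change of -1.42 (adjusted p = 0.1145). The part of gene length in this value was not tested further. Of the 22 presomitic mesoderm genes tested, 1 lay above and 6 below in both clones, against 14.6% and 16.0% of all genes. Hes7 and Lfng are in this list but overlapped between genotypes, so neither is in these counts. The median log2 fold change was -0.12 with them and -0.07 without them. Rspo3, a secreted enhancer of Wnt signalling, had 220.3 and 127.0 CPM, against 333 and 288 CPM in clones 19 and 7, with an adjusted p of 0.842.

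Hes7 and Lfng are given as a description with no test, since their difference between the Clock/Bmal1 clones was known beforehand. Hes7 had 21.5 CPM in clone 20 and 7.71 CPM in clone 12, against 19.5 and 16.7 CPM in clones 19 and 7 and 24.9 CPM in the control line. Clone 12 alone was low, while clone 20 lay above both ClockBmal1DN clones. Between genotypes the log2 fold change of Hes7 was -0.31 ± 0.38 (SE), and without clone 12 it turned to 0.25. Lfng had 20.8 CPM in clone 20 and 7.91 CPM in clone 12, against 22.8 and 20.7 CPM in clones 19 and 7 and 31.2 CPM in the control line. Its log2 fold change between genotypes was -0.61 ± 0.42 (SE). Mean Lfng levels were 14.3 ± 9.09 CPM in the Clock/Bmal1 clones and 21.8 ± 1.48 CPM in the ClockBmal1DN clones (SD, n = 2 clones each).

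Of the circadian genes that Clock and Bmal1 act on, 13 were tested, and 2 lay above and 5 below in both Clock/Bmal1 clones, against 14.6% and 16.0% of all genes. Per2, a repressor of the circadian loop, had 1.70 and 3.42 CPM in clones 20 and 12, against 7.46 and 9.29 CPM in clones 19 and 7 and 3.55 CPM in the control line. The ClockBmal1DN clones were thus above the control line as well, and the log2 fold change was -1.70 ± 0.35 (SE, adjusted p = 0.692). Cry1, the partner repressor of the Per proteins, had 28.8 and 30.9 CPM, against 50.8 and 45.2 CPM in clones 19 and 7 (-0.69 ± 0.16, adjusted p = 0.842). Dbp, a circadian output factor, had 5.47 and 4.93 CPM, against 4.21 and 2.78 CPM (0.57 ± 0.32, adjusted p = 0.842), and Per1 and Nr1d1 overlapped between genotypes. The edgeR test passed none of these, while DESeq2 called Per2 and Msgn1 (adjusted p = 0.00245 for Per2 and for Msgn1). For Per2 and Msgn1, edgeR gave log2 fold changes of -2.30 and -0.89 without clone 12, and -1.29 and -1.64 without clone 20.

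In the other lists the genotype comparison gave 2 genes each as values, none of which passed. Eomes, a mesendoderm T-box factor, had 4.42 and 4.14 CPM in clones 20 and 12, against 8.01 and 14.5 CPM in clones 19 and 7 (-1.39 ± 0.30, adjusted p = 0.746), and Gsc, a homeobox factor of the organizer, had 0.287 and 0.143 CPM, against 0.738 and 1.30 CPM (-2.25 ± 0.48, adjusted p = 0.746). Lefty1, a Nodal inhibitor, went the other way with 61.7 and 59.8 CPM, against 41.7 and 35.1 CPM (0.66 ± 0.17, adjusted p = 0.842). Rhox5, an X-linked homeobox gene, had 8.77 and 3.83 CPM, against 2.36 and 1.81 CPM (1.59 ± 0.37, adjusted p = 0.842). Of the 20 germline genes tested, 7 lay above and 0 below in both clones, against 14.6% and 16.0% of all genes. Of 17 p53 targets 6 lay above and 1 below, of 23 hypoxia and glycolysis genes 6 above and 1 below, and of 36 imprinted genes 3 above and 8 below. Of 26 Wnt signalling genes 2 lay above and 8 below, and of 22 FGF and MAPK genes 1 lay above and 6 below.

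Untreated clone 20 differed from clone 12 of its own genotype about as widely as from ClockBmal1DN clone 7. Over the 24951 genes, the log2 ratio of clone 20 to clone 12 had an SD of 0.77 in untreated libraries, against 0.53 for clone 19 over clone 7, and 15.9% of genes differed more than 2-fold, against 7.75%. The dox libraries gave SDs of 0.66 and 0.49. Ratios across genotypes had SDs of 0.76 and 0.67 for clone 20 over clones 7 and 19, with 15.9% and 12.3% of genes over 2-fold, and 0.61 and 0.55 for clone 12 over clones 7 and 19, so pairs with untreated clone 20 were the widest whatever the genotype. Whether the spread of the 2 genotypes differs was not tested.

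To test single genes between clones, each clone's dox library was used as its second library, with a dox effect for each genotype in the model, so the p-values measure the spread between libraries of a clone after that effect. The log2 fold changes between clones thus draw on the untreated pair and the dox pair together. CPM values beside them are of the untreated libraries unless dox is named, so their ratio can differ from the fold change. Of 21008 genes tested, 163 were higher (0.776%) and 110 lower (0.524%) in clone 20 than in clone 12, and at an unadjusted p under 0.05 there were 1347 higher (6.41%) and 1478 lower (7.04%). All 273 (1.30%), a count that includes Lfng, had the same direction in the untreated pair and in the dox pair, which the fit over both pairs favours, and 161 differed more than 2-fold in both. Genes lower in clone 20 were longer, with a median gene body of 42864 bases, against 14086 bases for those higher and 16151 bases over all tested. With the length trend of each library as an offset, 801 genes were called and 271 of the 273 were among them. Leaving out 1 of the 4 libraries of the pair raised the count, to 1790 without untreated clone 12, 1768 without untreated clone 20, 6813 without dox clone 12 and 6797 without dox clone 20, because the pair then adds nothing to the estimate of the spread, which comes from the ClockBmal1DN clones. At least 272 of the 273 genes were among the calls in each of these fits.

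**Figure D2:**
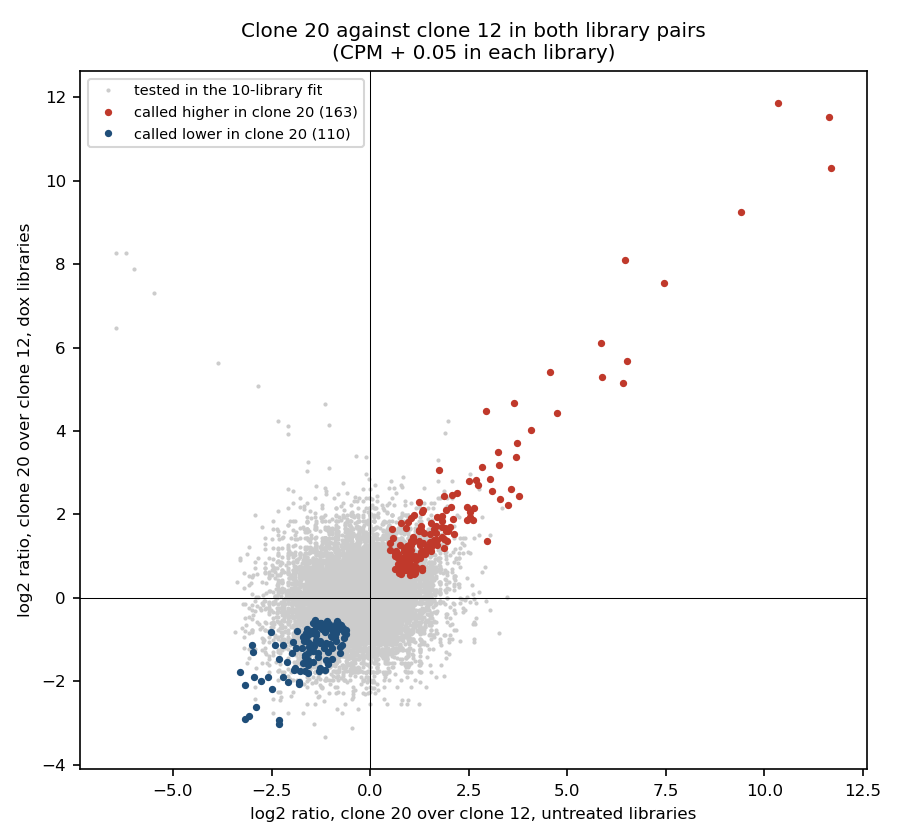
Log2 ratio of clone 20 over clone 12 in the untreated pair (x axis) and in the dox pair (y axis), with 0.05 CPM added to each value. Red points are the 163 genes called higher and blue points the 110 called lower in clone 20, and grey points are the genes tested over all 10 libraries. The called genes lie in the 2 quadrants where both pairs have the same direction, and the isolated red points at the upper right are Y-linked genes.

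Some of the segmentation genes were higher in clone 20 than in clone 12, and none of them was called lower. Of 20 presomitic mesoderm genes tested beside Hes7 and Lfng, 8 were higher and 0 lower, against 0.776% and 0.524% of all genes tested. Their median log2 fold change was 0.50, against 0.01 over all genes tested. Of 27 Notch signalling genes beside the same pair, 8 were higher and 0 lower, against the same shares, with a median of 0.30. Dll1 and Dll3 are members of both lists and count in each. Between ClockBmal1DN clones 19 and 7 the same lists had 0 genes called and medians of 0.17 and 0.01. Over all genes tested between those clones only 0.00476% were higher and 0.0333% lower, so 0 called is close to that share. The promoters of 3 of these genes are printed here because their products act in the Hes7 and Notch loop and their levels set clone 12 apart: Hes7 (chr11:69120203-69120502), Lfng (chr5:140607091-140607390) and Nrarp (chr2:25180508-25180807), all on the plus strand, from 250 bases before to 50 after the start that RefSeq gives on GRCm38.p6. Capitals mark the E-box CACGTG and the letters TGGGAA, a core recognised by the Notch partner Rbpj, on either strand.
Hes7: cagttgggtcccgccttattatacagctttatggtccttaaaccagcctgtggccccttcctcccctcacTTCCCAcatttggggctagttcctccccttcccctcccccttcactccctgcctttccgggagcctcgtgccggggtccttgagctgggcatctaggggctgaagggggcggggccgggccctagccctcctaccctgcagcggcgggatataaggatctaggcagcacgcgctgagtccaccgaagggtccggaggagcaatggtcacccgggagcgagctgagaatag
Lfng: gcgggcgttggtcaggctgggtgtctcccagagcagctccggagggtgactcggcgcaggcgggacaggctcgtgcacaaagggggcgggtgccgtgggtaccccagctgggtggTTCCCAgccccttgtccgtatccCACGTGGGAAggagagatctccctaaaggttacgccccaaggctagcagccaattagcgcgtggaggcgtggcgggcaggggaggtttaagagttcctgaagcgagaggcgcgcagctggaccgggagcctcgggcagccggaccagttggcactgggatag
Nrarp: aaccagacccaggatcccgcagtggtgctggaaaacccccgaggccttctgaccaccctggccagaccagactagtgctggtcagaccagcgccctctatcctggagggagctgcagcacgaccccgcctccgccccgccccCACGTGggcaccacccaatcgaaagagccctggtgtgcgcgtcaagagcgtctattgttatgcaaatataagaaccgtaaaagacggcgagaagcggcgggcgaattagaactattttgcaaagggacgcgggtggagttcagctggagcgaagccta
The Lfng promoter holds CACGTG 1 time and TGGGAA 2 times, and 1 of these overlaps the E-box. The Hes7 promoter holds TGGGAA 1 time and no CACGTG, and the Nrarp promoter CACGTG 1 time and no TGGGAA. Over all 32851 promoters of this length, 7.15% hold CACGTG, 25.6% TGGGAA and 1.67% both. A match describes the letters of the window and not a bound site.

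Between these clones Hes7 and Lfng are again a description. Hes7 was 2.79-fold higher in clone 20 than in clone 12 in untreated libraries, at 21.5 against 7.71 CPM, and 1.45-fold higher after dox, at 33.0 against 22.9 CPM. Lfng was 2.62-fold higher untreated, at 20.8 against 7.91 CPM, and 2.07-fold higher after dox, at 98.0 against 47.4 CPM. For both, the untreated value of clone 12 was the lowest of all 10 iPSM libraries.

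Of the Notch ligands, Dll1, Dll3 and Jag1 were called higher in clone 20. Dll1, the main activating ligand of the tissue, had 159 CPM in untreated clone 20 and 51.3 CPM in clone 12, with 139.9 and 53.2 CPM in the dox libraries, and the log2 fold change was 1.52 ± 0.17 (SE, adjusted p = 0.00236). Clones 19 and 7 had 141 and 153 CPM and the control line 237 CPM, so clone 12 lay below every other line. Dll3, a ligand that acts inside the cell, had 36.1 against 18.4 CPM (0.96 ± 0.16, adjusted p = 0.0173), and Jag1, a further ligand, 59.6 against 33.9 CPM (0.87 ± 0.14, adjusted p = 0.0165). Of the receptors, Notch1 had 108 against 70.0 CPM (0.85 ± 0.16, adjusted p = 0.0274) and Notch3 34.7 against 18.4 CPM (1.06 ± 0.15, adjusted p = 0.0098). For Notch1, untreated clones 19 and 7 and the control line were nearer clone 20. For Notch3 only the control line was, and clones 19 and 7 were nearer clone 12. Notch2 had 80.5 and 102.0 CPM and did not pass.

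Targets of the pathway were called in part. Nrarp, a Notch target that dampens the receptor, had 32.4 CPM in untreated clone 20 and 8.30 CPM in clone 12, and 30.6 and 11.9 CPM after dox (log2 fold change 1.66 ± 0.20, adjusted p = 0.00334). Clones 19 and 7 lay between them with 20.6 and 23.7 CPM. Hes5 and Hey1, transcriptional repressors downstream of Notch, had 2.17 against 0.469 CPM (2.10 ± 0.35, adjusted p = 0.0182) and 5.35 against 2.20 CPM (1.28 ± 0.21, adjusted p = 0.0176). Hes1, the repressor of many other tissues, had 20.5 and 12.4 CPM and did not pass (adjusted p = 0.357). Rbpj, the DNA-binding partner of the receptors, had 81.9 and 124 CPM in the untreated libraries and 111 and 110.0 CPM after dox, without passing.

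Among factors of the presomitic mesoderm, Tbx6 had 55.0 CPM in clone 20 and 21.8 CPM in clone 12, and 34.4 and 13.8 CPM after dox (1.33 ± 0.16, adjusted p = 0.0042). Untreated clones 19 and 7, with 54.9 and 61.5 CPM, were near clone 20. Cyp26a1, which breaks down retinoic acid, had 12.5 against 3.47 CPM (1.86 ± 0.22, adjusted p = 0.0033), and Pcdh19, a protocadherin, 45.2 against 17.9 CPM (1.72 ± 0.22, adjusted p = 0.00483). The other members called were Dact1, a modulator of Wnt signalling, Rspo3, Fgf4 and the ligands Dll1 and Dll3. Msgn1, with 35.9 and 21.5 CPM, T, with 558 and 511 CPM, and the Wnt and FGF ligands Wnt3a (84.1 and 62.5 CPM) and Fgf8 (67.2 and 45.8 CPM) did not pass.

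**Figure D3:**
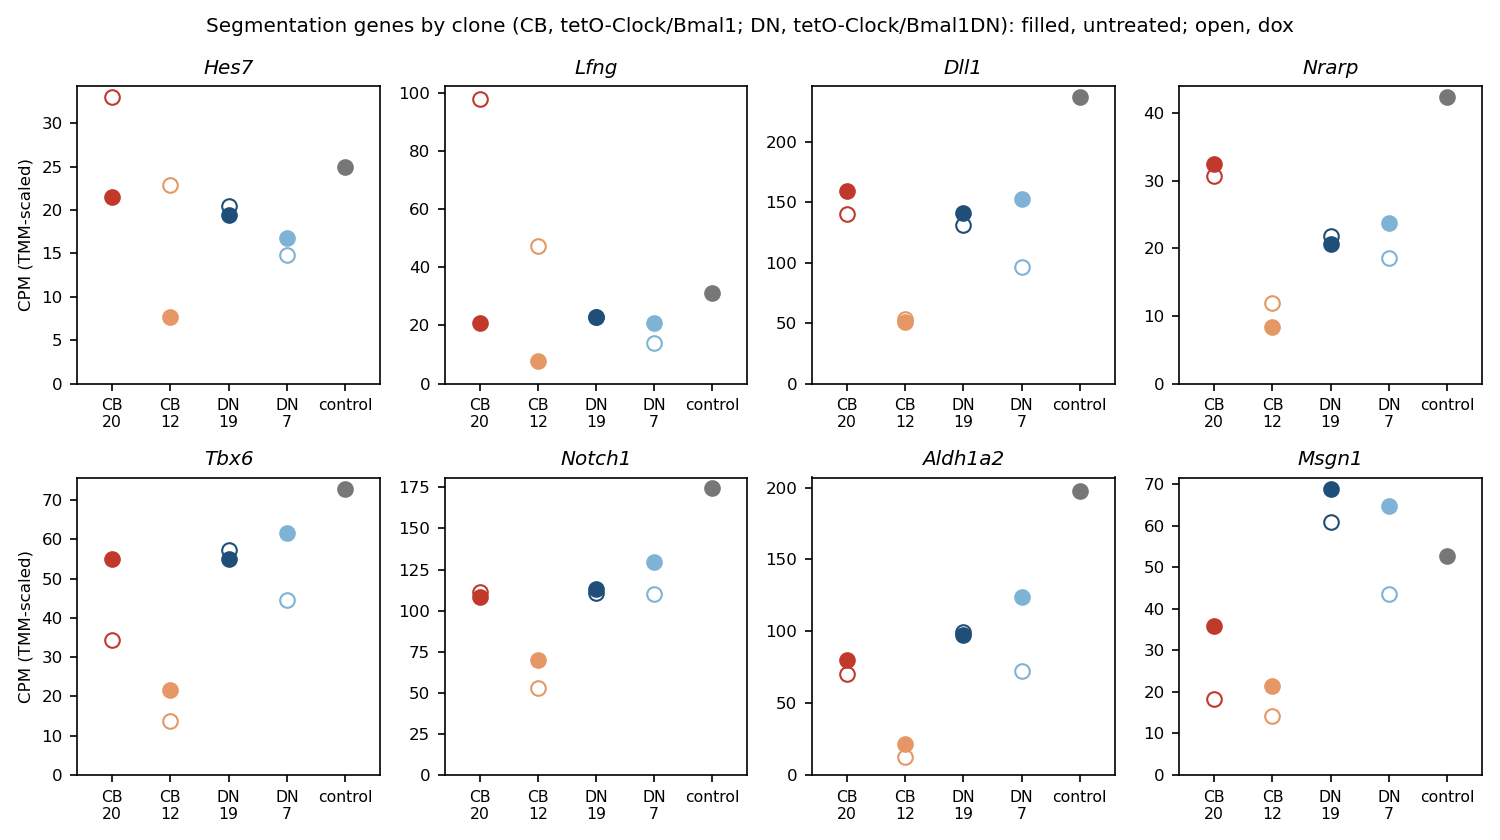
Levels of 8 segmentation genes in CPM (linear y axes starting at 0) by clone, with Clock/Bmal1 clones 20 and 12, ClockBmal1DN clones 19 and 7, and the control line from left to right. Filled points are untreated libraries and open points dox libraries, 1 library each. Clone 12 is the lowest untreated line in each panel, down to 7.71 CPM for Hes7 and 51.3 CPM for Dll1, and for Msgn1 clone 20 is low too, at 35.9 CPM.

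Of 20 genes of the somite and its boundary tested, 3 were higher in clone 20, 0 were lower and 17 did not pass. Beside this list and the FGF and Wnt lists that follow, 0.776% of all genes tested were higher and 0.524% lower. Aldh1a2, which makes retinoic acid, had 79.8 CPM in clone 20 and 21.8 CPM in clone 12 (2.16 ± 0.22, adjusted p = 0.000994). Foxc1, a forkhead factor of paraxial mesoderm, had 7.31 against 0.979 CPM (3.06 ± 0.32, adjusted p = 0.0015), and Epha4, a receptor of segment borders, 240.4 against 136 CPM (0.86 ± 0.14, adjusted p = 0.0183). In FGF signalling 3 of 22 were higher and 0 lower: Fgf15 with 15.6 against 4.34 CPM (1.91 ± 0.19), Fgf3 with 19.2 against 4.83 CPM (1.81 ± 0.19) and Fgf4 with 34.2 against 15.2 CPM (1.05 ± 0.16), with adjusted p-values of 0.000994, 0.0015 and 0.0115. Of 25 Wnt genes 2 were higher, Wnt5a with 7.65 against 3.22 CPM (1.78 ± 0.28, adjusted p = 0.0141) and Rspo3 with 220.3 against 127.0 CPM (0.83 ± 0.14, adjusted p = 0.0203).

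Some Hox genes, which record position along the body axis, were higher in clone 20, and they came from all 4 clusters. The called members were Hoxa7 (6.83 against 1.77 CPM, log2 fold change 2.04 ± 0.28), Hoxb4 (14.6 against 7.97 CPM, 0.93 ± 0.18), Hoxc4 (6.64 against 2.26 CPM, 1.44 ± 0.25), Hoxc5 (5.90 against 2.41 CPM, 1.18 ± 0.24), Hoxd3 (74.0 against 29.5 CPM, 1.23 ± 0.14) and Hoxd4 (41.4 against 14.2 CPM, 1.39 ± 0.16). Their adjusted p-values lay between 0.00254 for Hoxd4 and 0.0446 for Hoxc5. They were 1 of 7, 1 of 9, 2 of 5 and 2 of 6 tested genes of clusters A, B, C and D, and 0 were lower. Over all genes tested, 0.776% were higher and 0.524% lower. Clones 19 and 7 had 32.1 and 24.9 CPM of Hoxd4, between the Clock/Bmal1 clones.

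Markers of other cell types differed between the same clones in part, and their part in the segmentation gene differences was not tested. Over all genes tested, 0.776% were called higher and 0.524% lower in clone 20. Endothelial and blood markers summed to 143 CPM in untreated clone 20 and 68.6 CPM in clone 12, against 107 and 127 CPM in clones 19 and 7. Of 10 tested, 1 was called: Lmo2, a blood and endothelial cofactor, had 129 against 49.9 CPM (1.23 ± 0.16, adjusted p = 0.00449). Lmo2 made up most of the sums of clones 20 and 12, so their difference describes mainly this gene. Endoderm and notochord markers summed to 1798 and 1328 CPM, against 1233 and 1330 CPM in clones 19 and 7. Of 12 of them, 2 were called, Cxcr4, a chemokine receptor, with 13.8 against 2.96 CPM (2.37 ± 0.27, adjusted p = 0.00256) and Noto, a notochord homeobox factor, with 50 against 2 reads in the untreated pair, a ratio of 29.3 with an exact 95% counting interval of 7.70 to 249. Of 16 fibroblast markers 4 had a positive and 12 a negative log2 fold change, with a median of -0.26, though they summed to 402 and 359 CPM. Called among them were Pdgfra, also a receptor of paraxial mesoderm, at 44.4 against 10.8 CPM (1.88 ± 0.17, adjusted p = 0.000448) and Dcn, a matrix proteoglycan, lower at 2.15 against 6.54 CPM (-1.62 ± 0.23, adjusted p = 0.00892). Basement membrane genes of the extraembryonic list, Col4a1 and Lama1, had 69.6 against 34.0 CPM and 32.7 against 16.9 CPM (1.09 ± 0.14 and 1.09 ± 0.15). By edgeR 0 of 12 neural markers and 0 of 14 markers of lateral, intermediate and cardiac mesoderm were called, and the neural ones summed to 44.9 and 42.5 CPM. Hand1, a lateral and extraembryonic factor, Nkx2-5, a cardiac factor, Hba-x, an embryonic globin, Tpbpa, a trophoblast gene, and Ttr, an endoderm gene, had 0 reads in at least 1 of the 2 untreated libraries.

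Pluripotency genes were not called in either list, with 0 of 18 naive and 0 of 14 primed genes. Nanog, a core factor of stem cells, had 37.0 CPM in clone 20 and 54.8 CPM in clone 12 (-0.71 ± 0.16, adjusted p = 0.0679), against 50.8 and 66.8 CPM in clones 19 and 7. The naive list as a whole summed to 508 and 568 CPM, against 504 and 619 CPM in clones 19 and 7, and had a median log2 fold change of -0.42. Germline genes gave 3 lower and 0 higher of 20, against 0.524% and 0.776% of all genes tested. Dazl, an RNA-binding protein of germ cells, had 13.9 against 27.4 CPM (-1.09 ± 0.18, adjusted p = 0.0165). Mael had 4.04 against 8.50 CPM (-1.33 ± 0.22, adjusted p = 0.0176). Sycp3, part of the meiotic chromosome axis, had 6.07 against 13.4 CPM (-0.98 ± 0.17, adjusted p = 0.0247). Egr1, an immediate early factor, was the single one called of 21, at 2.60 against 13.1 CPM (-1.90 ± 0.25, adjusted p = 0.00557), and clones 19 and 7 had 7.06 and 8.02 CPM.

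Genes of the integrated stress response gave 3 higher and 0 lower of 19, against 0.776% and 0.524% of all genes tested. Aldh1l2 and Mthfd2, enzymes of mitochondrial folate metabolism, had 7.43 against 2.94 CPM (1.71 ± 0.25, adjusted p = 0.011) and 80.6 against 38.8 CPM (0.89 ± 0.15, adjusted p = 0.0167), and Vldlr, a lipoprotein receptor, 40.6 against 24.7 CPM (0.77 ± 0.14, adjusted p = 0.0245). For all 3, clones 19 and 7 were nearer clone 12 and the control line nearer clone 20 in untreated libraries. In the dox libraries this held for Mthfd2 but not for Aldh1l2 or Vldlr. Of 23 hypoxia and glycolysis genes, Pfkp, a phosphofructokinase, was lower at 82.8 against 131.8 CPM (-0.72 ± 0.14, adjusted p = 0.0326). The circadian lists had 0 of 13 E-box target genes and 0 of 15 other components called. This fit joins the untreated pair and the dox pair, so opposite differences cancel in it. The E-box targets summed to 199.6 and 269.9 CPM in untreated clones 20 and 12, but to 879.8 and 732.6 CPM after dox. The 0 calls thus do not show that the untreated clones agree on these genes. Per1 had 5.02 and 7.73 CPM and Nr1d1 1.29 and 2.16 CPM in untreated clones 20 and 12.

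**Figure D4:**
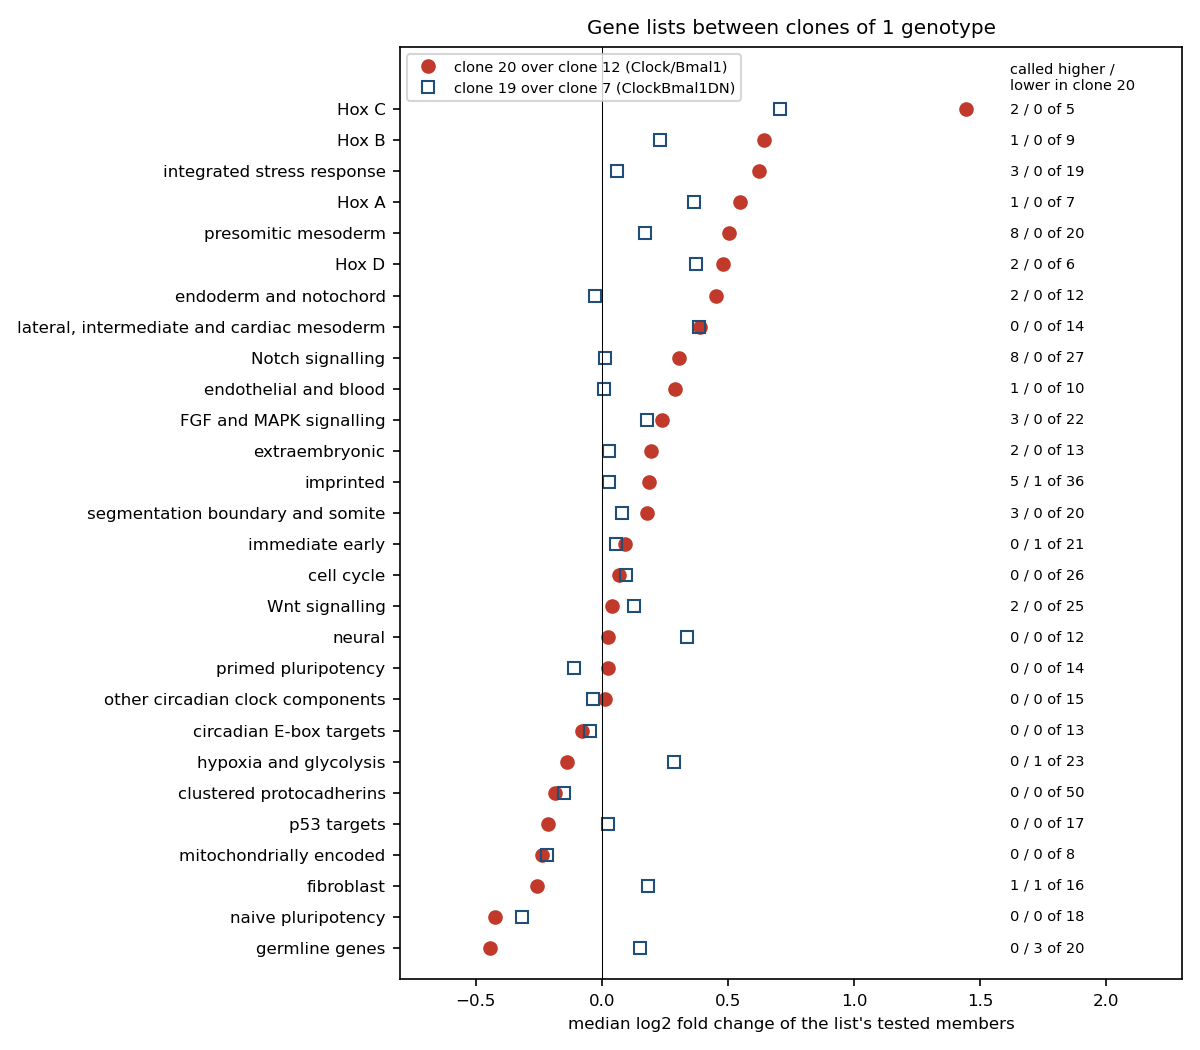
Median log2 fold change of the tested members of 28 gene lists (rows), without Hes7 and Lfng, for clone 20 over clone 12 in Clock/Bmal1 iPSM (filled circles) and for clone 19 over clone 7 in ClockBmal1DN iPSM (open squares). The numbers at the right give how many members were called higher and lower in clone 20, of those tested. Presomitic mesoderm (8 of 20) and Notch signalling (8 of 27) have the most called members, and the Y-linked list is left out for scale. Over all genes tested, 0.776% were called higher and 0.524% lower.

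The widest differences between clones 20 and 12 were in Y-linked genes. Eif2s3y, a translation factor gene, had 160.5 CPM in untreated clone 20 and 0 reads in clone 12, and 148 CPM and 0 reads in the dox pair. Taking 3 counts per library for a count of 0, it was at least 2625-fold higher in clone 20 untreated and at least 2042-fold higher after dox. Ddx3y, an RNA helicase gene, was at least 2698-fold higher untreated, with 165 CPM against 0 reads. Uty, a histone demethylase gene, had 6039 reads in clone 20 and 3 in clone 12, a ratio of 2359 with an exact 95% counting interval of 807 to 11444. Kdm5d, a further demethylase gene, was at least 556-fold higher, Uba1y at least 141-fold and Usp9y at least 46.5-fold, and Zfy1 had 406 against 3 reads, a ratio of 159 (53.9 to 772).

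The Y-linked genes also differed among the other lines. Eif2s3y had 129.8 and 143 CPM in clones 19 and 7 and 154 CPM in the control line, near clone 20. Ddx3y had 38.1 and 123 CPM and Uty 35.0 and 209 CPM in clones 19 and 7, so clone 19 lay between clone 12 and the rest. Kdm5d had 0.632 and 5.00 CPM, against 34.0 CPM in clone 20 and 21.8 CPM in the control line. Of 16 Y-chromosome features tested, 10 were called between clones 20 and 12 (62.5%), against 1.30% of all genes tested. Among them Gm47283, at the far end of the chromosome in the table, had 249 CPM in clone 12, against 542 CPM in clone 20. Whether its reads come from the Y chromosome was not tested. Several of these genes have close copies on the X chromosome, and reads that the counting split between copies would be uncertain. Xist stayed at or under 0.864 CPM in all 4 lines.

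A group of imprinted genes, expressed from 1 parental copy, was high in clone 20 alone of the 4 transgenic lines. H19, a noncoding RNA gene at chr7:142575529-142578143 (mm10, minus strand), had 55.6 CPM in clone 20 and 0.897 CPM in clone 12, and 40.8 and 0.987 CPM after dox (5.67 ± 0.25, adjusted p = 1.47e-06). Clones 19 and 7 were as low as clone 12, with 1.26 and 1.48 CPM, and the control line had 52.3 CPM. Nnat, a small membrane protein gene, had 41.6 against 0.408 CPM (6.27 ± 0.29, adjusted p = 2.14e-06), with 0.379 and 0.638 CPM in clones 19 and 7 and 15.5 CPM in the control line. Plagl1, a zinc finger factor gene, had 3.39 against 0.224 CPM (4.43 ± 0.40, adjusted p = 0.0005), with 0.211 and 0.230 CPM in clones 19 and 7. All of these lie on different chromosomes. Mest had 56.4 against 28.2 CPM (0.87 ± 0.15, adjusted p = 0.0202), and Nap1l5 had 25 reads in clone 20 against 0 in clone 12 untreated, at least 9.77-fold. Zim1, at 1.48 against 4.10 CPM (-1.33 ± 0.24, adjusted p = 0.027), was lower in clone 20 than in every other untreated line. These were 5 higher and 1 lower of 36 imprinted genes tested, against 0.776% and 0.524% of all genes tested.

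**Figure D5:**
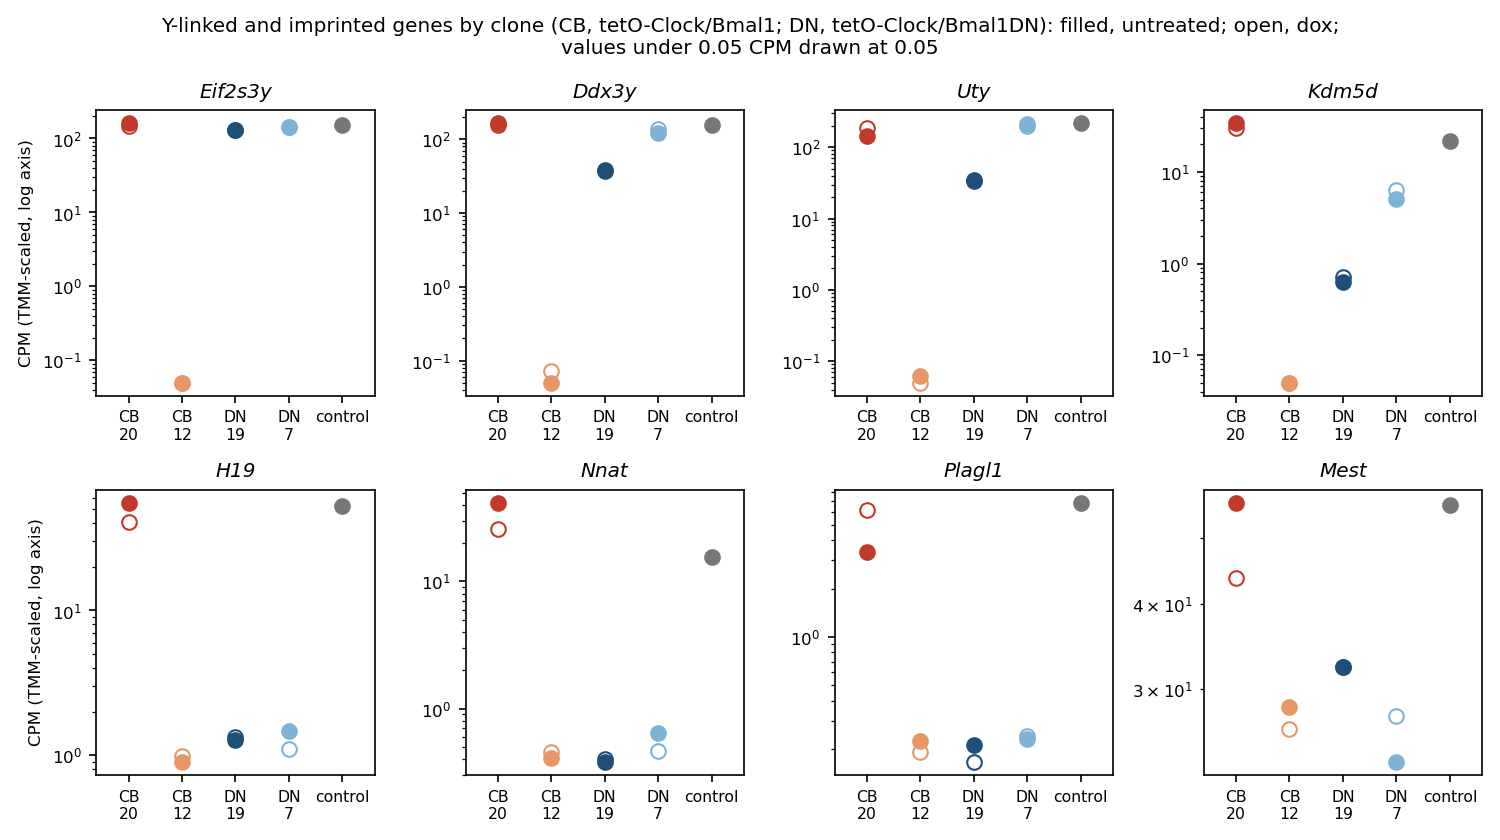
Levels in CPM (log y axes) of 4 Y-linked genes (top) and 4 imprinted genes (bottom) in clones 20 and 12 (CB), 19 and 7 (DN) and the control line, filled for untreated and open for dox libraries. Values under 0.05 CPM are drawn at 0.05. Clone 12 has next to no reads of the Y-linked genes, and H19, Nnat and Plagl1 are high in clone 20 and the control line only, with 55.6 and 52.3 CPM of H19.

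The same split was seen in the Xlr genes, an X-linked multigene family. The 7 features called, Xlr3a, Xlr3b, Xlr4a, Xlr4b, Xlr5a, Xlr5b and Xlr5c, were higher in clone 20. Xlr3a had 14.7 CPM in clone 20 and 0.816 CPM in clone 12, against 0.906 and 0.613 CPM in clones 19 and 7 and 11.4 CPM in the control line (4.13 ± 0.26, adjusted p = 3.56e-05). Xlr4a had 250 reads against 1 untreated, a ratio of 293 (52.1 to 11619), and Xlr5b 67 against 1, a ratio of 78.5 (13.6 to 3147). Copies of this family are near-identical, so the split of reads between them is uncertain.

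The genes with the deepest falls in clone 20 against clone 12 were mostly expressed at a few CPM. Sertm1, a membrane protein gene, had 0.932 against 8.87 CPM (-3.09 ± 0.23, adjusted p = 0.000128), with 13.5 and 8.78 CPM in clones 19 and 7 and 0.996 CPM in the control line, the opposite order to H19. Nav3, a neuron navigator gene, had 5.26 against 40.8 CPM (-2.41 ± 0.24, adjusted p = 0.00098), and Dner, a Notch-related surface protein gene, 2.53 against 17.4 CPM (-2.39 ± 0.22, adjusted p = 0.000695). The other 7 by the naming rule were Ccdc178, Arhgef38, Ctcfl, Npsr1, Platr28, Spata48 and Grin2b, with log2 fold changes between -2.54 ± 0.36 (SE) for Ccdc178 and -1.997 ± 0.40 (SE) for Grin2b and levels of 1.06 to 4.73 CPM in untreated clone 12.

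The other lines were placed beside these 273 genes. For 95 genes, clones 19 and 7 and the control line were all nearer clone 20 in untreated libraries on the log2 scale, so that clone 12 departed. Of these, 82 were higher in clone 20, among them Dll1, Dll3, Jag1, Notch1, Nrarp, Tbx6, Pcdh19, Rspo3, Aldh1a2, Foxc1, Hoxd3 and Hoxd4, and 13 were lower, among them Dazl and Pfkp. For 44 genes all 3 were nearer clone 12, so that clone 20 departed, among them Nav3, Dner and Zim1, and Acp2, Api5 and Pdhx of chromosome 2. For 82 genes clones 19 and 7 were nearer clone 12 and the control line nearer clone 20. Among them were H19, Nnat, Plagl1, Mest, the Xlr genes and Sertm1, and Kdm5a, Phc1 and Wbp11 of chromosome 6. Regional shifts on these 2 chromosomes are given below, and their part in the classes was not tested. For 51 genes clones 19 and 7 fell on different sides, among them Hes5, Hey1, Fgf4, Fgf15 and Hoxc5, and for 1 gene they were nearer clone 20 and the control line nearer clone 12. In the dox libraries, 81 of the 95, 15 of the 44 and 56 of the 82 fell into the same class. The counts use the values that the calls rest on and are a description.

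Called genes were unevenly spread over the chromosomes. Of 1075 genes tested on chromosome 6, 40 were called (3.72%), and of 1556 on chromosome 2, 35 (2.25%), against 1.30% over all. Chromosome X had 21 of 696 (3.02%) and chromosome 10 had 20 of 992 (2.02%). In bins of 5 Mb with at least 20 genes, chosen after these calls were seen, 4 neighbouring bins of chromosome 6, from 110000001 to 130000000, had median log2 ratios of clone 20 over clone 12 between -0.54 and -0.41 untreated and between -0.58 and -0.53 after dox. In the same bins clones 19 and 7 lay above the control line by 0.58 to 0.68 and by 0.60 to 0.67 untreated, and clone 20 lay above it by 0.02 to 0.28. Gt(ROSA)26Sor, a noncoding transcript of the Rosa26 locus at chr6:113067428-113077191 (mm10, minus strand), lies in this stretch and had 35.2 against 63.2 CPM (-0.70 ± 0.14, adjusted p = 0.0474), with 70.5 and 64.8 CPM in clones 19 and 7. The control line had 48.2 CPM, nearer clone 12 on the log2 scale, unlike the medians of the bins. It was chosen after its value was seen. On chromosome 2, clone 20 lay above clone 12 by 0.53 and 0.52 untreated and by 0.42 and 0.57 after dox in the bins from 80000001 to 85000000 and from 90000001 to 95000000. Of 304 bins, these 6 passed 0.4 in both pairs of clones 20 and 12, and 0 passed between clones 19 and 7. Further along chromosome 2, the bins from 100000001 to 105000000 and from 110000001 to 115000000 were raised too. They had 0.29 and 0.36 untreated, under the limit, and 0.60 and 0.46 after dox. The number of DNA copies was not measured.

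Clones 19 and 7 of ClockBmal1DN had fewer genes called than clones 20 and 12, though the difference of the 2 counts was not tested. Of 21008 genes, 1 was higher (0.00476%) and 7 were lower (0.0333%) in clone 19, 8 in all (0.0381%). Cfp, which encodes properdin of the complement system, had 5.61 CPM in clone 19 and 0.128 CPM in clone 7, and 6.13 and 0.175 CPM after dox (5.24 ± 0.32, adjusted p = 0.000209). It had 4.40 and 5.71 CPM in clones 20 and 12, so clone 7 departed. Of the Y-linked genes 3 were lower in clone 19: Uty (35.0 against 209 CPM, -2.58 ± 0.19, adjusted p = 0.00063), Kdm5d (0.632 against 5.00 CPM, -3.06 ± 0.24, adjusted p = 0.00188) and Ddx3y (38.1 against 123 CPM, -1.79 ± 0.19, adjusted p = 0.00784). Rag2, a recombinase gene of lymphocytes, had 0 reads in untreated clone 19 and 81 in clone 7, at least 32.7-fold lower, and 0 reads in clones 20 and 12. Rnu3a, a small nucleolar RNA listed as 2 overlapping features with the same counts, had 20.5 against 52.8 CPM (-1.48 ± 0.16, adjusted p = 0.00784), and Gm32885 had 2.00 against 8.81 CPM (-1.88). Without the dox library of clone 7 or of clone 19, 8 genes were called, 6 of them the same.

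No segmentation gene was called between clones 19 and 7 by edgeR, against 0.0381% of all genes tested. At an unadjusted edgeR p under 0.05, 203 genes were higher (0.966%) and 238 lower (1.13%), and DESeq2 called 13 genes in all. Hes7 had 19.5 and 16.7 CPM and Lfng 22.8 and 20.7 CPM in untreated clones 19 and 7 (0.34 ± 0.22 and 0.41 ± 0.18, adjusted p = 1 for both). Rspo3 had 333 and 288 CPM (0.34 ± 0.14) and Fgf15 12.6 and 8.20 CPM (0.65 ± 0.18), and both had an adjusted p of 1.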

How the data were processed

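RNA of the iPSM libraries was measured in stranded total-RNA libraries read as 101 bp pairs, per the labels. The deposited values are expected counts (estimated counts in steps of 0.5) that the authors made over gene bodies of 55421 features, with no normalisation per the file headers; bcl2fastq, STAR 2.7.2a, HOMER and mm10 are named in the submitters' processing notes. Counts were rounded to whole numbers, those ending in 0.5 upward. edgeR 4.0.16 under R 4.3.3 (TMM, filterByExpr by group, glmQLFit, glmQLFTest, two-sided, Benjamini-Hochberg over all genes tested, 0.05) fitted 10 libraries as 6 groups with 4 residual degrees of freedom for the genotypes, and 8 transgene libraries with clone and a dox effect per genotype, with 2, for the clones. Standard errors come from the fold change and the root of its F statistic. limma 3.58.1 and DESeq2 1.42.0 gave alternatives, and the scripts were tested on simulated data. Log2 ratios of single libraries used a prior count of 2. Intervals and floors (3 counts per library, 95%) cover counting error only, since reads carry no molecular identifiers. The members, gene lists and tests were chosen with earlier results of these data known. Named genes were Hes7, Lfng, Clock, Arntl and the circadian targets Per1, Per2, Nr1d1 and Dbp, the 10 widest rises and falls called per comparison with at least 1 CPM and no provisional symbol, and up to 4 called members of each list, or 2 as values where 0 were called; further members of the segmentation lists are given as values. With 2 clones per genotype, p-values measure the spread of these clones and libraries.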

Additional observations from a re-analysis of the deposited data

How the results depend on the processing

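Between genotypes, 0 genes were called by edgeR with TMM or RLE factors, at 1 CPM in 2 libraries, with counts rounded down, in the 4 untreated libraries alone, without the control line, with the gene length offset (chosen after seeing the data) and by limma. DESeq2 called 25 and edgeR without a filter 216. Leaving out 1 clone gave 0 to 1729 (the higher count without clone 12). With the clone as a replicate block, limma called 0 (1030 at an unadjusted p under 0.05), so the block changed no call. The numbers of the clones do not pair the genotypes. Between clones 20 and 12, DESeq2 called 506 genes, no filter gave 1059 and the gene length offset 801, and leaving out 1 library gave 1768 to 6813. Between clones 19 and 7, DESeq2 called 13, no filter 27, the length offset 13 and a dox effect common to both genotypes 4, and leaving out 1 library gave 8 to 9. Of 58 named genes called between clones 20 and 12, 51 kept the call with a common dox effect, 55 at 1 CPM and 57 with DESeq2, and of 7 between clones 19 and 7, 4, 7 and 5 did.

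Values that changed sign were not called as reported. Between genotypes, Clock turned to 0.045 with the length offset and Kdm5d to -1.85 with voom and -1.84 with the replicate block. Leaving out 1 clone gave -1.24 to 0.25 for Hes7 (above 0 without clone 12), and, with the turn without clone 20, -0.59 to 0.027 for Per1, -0.30 to 6.37 for Nnat, -0.61 to 5.34 for H19, -9.92 to 4.74 for Kdm5d (a fitted value against 0 reads, no bound), -0.24 to 1.96 for Hoxa7 and -0.37 to 1.82 for Hoxc8. Between clones 20 and 12, Per1, Per2 and Nr1d1 turned to 0.12, 0.25 and 0.20 with a common dox effect. Leaving out 1 library gave -0.63 to 0.38, -1.02 to 0.62 and -0.75 to 0.41. These values were above 0 without either untreated library and below 0 without either dox library, so the 2 pairs went opposite ways. Between clones 19 and 7, Clock turned to 0.084 with the length offset, and leaving out 1 library gave -0.065 to 0.056 for Clock, -2.54 to 0.66 for Arntl and -0.23 to 0.71 for Nr1d1. The cause was not tested. Having 1 untreated library per clone limits the precision.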
